A study of Mus musculus with 12 samples.

Results

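Platelet-exposed bone marrow monocytes were compared with untreated ones, which takes in 6 of the 12 libraries of the series, 3 in each group, chosen by their titles and treatment labels. All cells were labelled as monocytes from the bone marrow of WT C57Bl6J mice. The untreated group (NC) received nothing, and the platelet group (PLT) was kept with platelets overnight. The other 6 libraries are 3 of monocytes given LPS only and 3 of monocytes given platelets overnight, washed, and then given LPS. They are used to set the platelet effect with LPS beside the one without it. They also enter the filter on low counts, the scaling and the estimate of the spread behind every platelet-against-untreated test. Not stated in the material used here are the ratio and source of the platelets, the age and sex of the mice, how monocytes were isolated, and the dose and time of LPS. The labels do not tell if replicates are different mice, different cultures or repeat libraries; the p-values below capture library-to-library variation that could be purely technical.

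Platelets are small cell fragments without a nucleus, shed by megakaryocytes, and they carry RNA made in that parent cell along with membrane cholesterol, granule chemokines and growth factors. They attach to monocytes through P-selectin and its ligand PSGL-1, and phagocytes can engulf them. A macrophage that takes in cholesterol is known to shift between opposed programmes: the SREBP-2 transcription factor, which switches on cholesterol synthesis and uptake, is held back when sterols are plentiful, while the oxysterol receptor LXR switches on the genes that export cholesterol.

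Expression is given as CPM, counts scaled to library size with edgeR's TMM factors. The libraries held 24520148 to 26090209 counts in the untreated group and 26275605 to 30491202 in the platelet group, so that 3 counts correspond to 0.0854 to 0.105 CPM, and lower values are not told apart from 0. A gene is said to have risen or fallen where the edgeR quasi-likelihood test, fitted on all 4 groups, gave a Benjamini-Hochberg adjusted p under 0.05. Platelet replicate 1 stands apart and is labelled inconsistently: its title and treatment say platelets, while its description reads "Control". On the first principal component of log2 CPM (44.8% of the variance) the untreated libraries lay at -29.5, -29.4 and -21.3 and the platelet libraries at 44.1, 20.7 and 15.3, with replicate 1 the farthest from the untreated ones. On the second (23.5%) replicate 1 lay at -30.3 and the other platelet libraries at 27.6 and 22.1. Mitochondrial genes made up 0.886% of its counts, against 0.600% and 0.566% in platelet replicates 2 and 3 and 0.472% to 0.566% in the untreated libraries. These shares miss mt-Nd4l, mt-Co2, mt-Co3, mt-Atp6 and mt-Atp8, which had 0 counts in all 6 libraries. Platelet replicate 1 was kept in the platelet group, where its title and treatment label put it, and results are also given without it.

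After the night with platelets, 478 genes were higher and 376 lower in the libraries of platelet-exposed monocytes, 854 of 13151 genes tested (6.49%: 3.63% higher and 2.86% lower). Most changes were small: the median fold was 1.65 among the genes that rose and 1.48 among those that fell, and 164 rises and 65 falls reached 2-fold. Genes of cholesterol synthesis and uptake made up much of the top of the falls, and cholesterol exporters, platelet transcripts and haemoglobin that of the rises. In 476 of the 478 higher genes and 373 of the 376 lower ones the 3 platelet libraries did not overlap the 3 untreated ones, as was the case for 25.1% of all genes tested. Without platelet replicate 1, 590 of 13568 genes were higher (4.35%) and 296 lower (2.18%), and all 854 genes kept their direction. Of the 478 higher genes 430 (90.0%) still passed without that library, and of the 376 lower genes 245 (65.2%), so more of the falls were lost. The balance also depended on the scaling: upper-quartile factors gave 542 higher and 289 lower genes. Leaving out untreated replicate 1 or 2 left 439 and 410 genes in all, and leaving out platelet replicate 2 left 546.

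**Figure D1:**
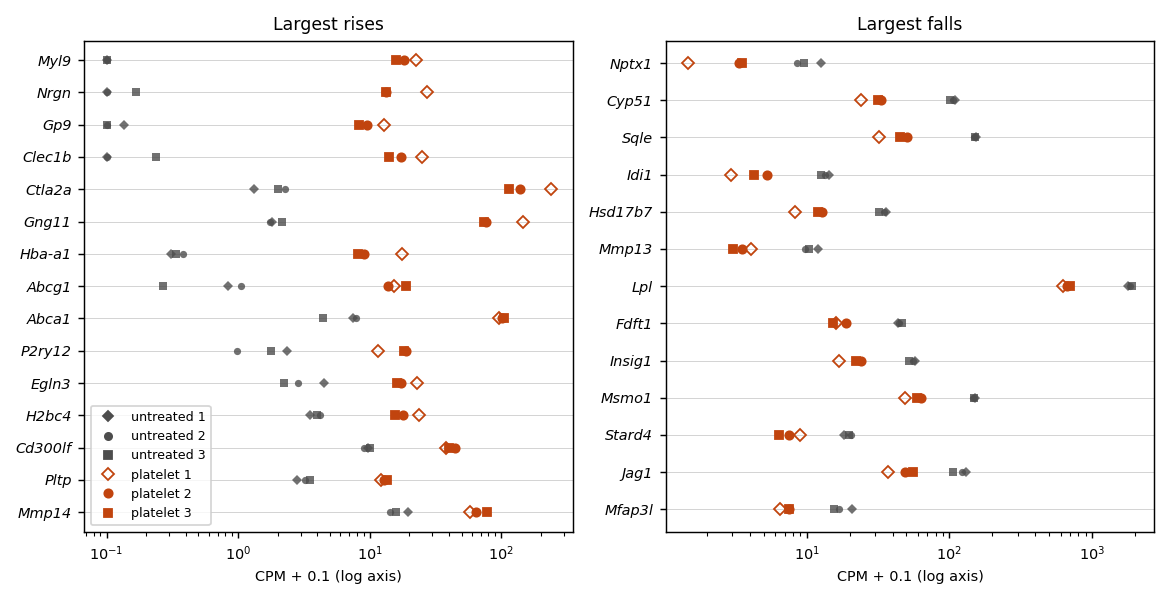
Expression of the 15 genes with the largest rise and 13 of the 15 with the largest fall in platelet against untreated monocytes, as CPM + 0.1 on a log axis, 1 point per library (grey, untreated; orange, platelet; open diamonds, platelet replicate 1). In every gene shown the platelet libraries lie apart from the untreated ones, because genes whose groups overlap were not eligible.

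Many of the largest falls were in the machinery that makes and imports cholesterol. Srebf2, which encodes the SREBP-2 factor itself, had 181, 177 and 164 CPM untreated and 58.3, 77.6 and 79.4 CPM with platelets (log2 fold change -1.27 ± 0.11, adjusted p = 2.06e-06), and its change was -1.12 on the log2 scale without platelet replicate 1. Insig1, whose product retains SREBP in the endoplasmic reticulum and is itself a target of it, had 57.4, 55.3 and 51.6 CPM untreated and 16.8, 23.8 and 22.2 CPM with platelets (log2 fold change -1.38 ± 0.13, adjusted p = 6.12e-06). Both fell with no overlap between groups, and replicate 1 was the lowest library for each. Stard4, a carrier that moves sterols between membranes, also fell (log2 fold change -1.37 ± 0.18, adjusted p = 0.00018), so that 4 of the 14 tested genes of SREBP control and LDL uptake (28.6%) were lower, with a list median of -0.19 on the log2 scale. Srebf1, which drives fatty acid synthesis, did not pass: its values were 74.8, 76.4 and 70.4 CPM untreated and 65.8, 70.9 and 75.2 CPM with platelets (adjusted p = 0.74). The lysosomal cholesterol exporter Npc1 had 131, 139 and 149 CPM untreated and 154, 123 and 126 CPM with platelets (adjusted p = 0.802).

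Among the enzymes of the mevalonate part of the pathway, 6 of 9 tested fell (66.7%, against 2.86% of all genes), with a list median of -0.71. Hmgcs1, which makes HMG-CoA, had 63.4, 56.9 and 59.5 CPM untreated and 20.3, 26.8 and 26.4 CPM with platelets (log2 fold change -1.29 ± 0.10, adjusted p = 1.06e-06). Downstream of it Idi1, the isomerase that sets up isoprenoid condensation, had 14.2, 13.4 and 12.5 CPM untreated and 2.85, 5.19 and 4.21 CPM with platelets (log2 fold change -1.70 ± 0.18, adjusted p = 1.88e-05). For both enzymes the platelet values were well under the untreated range and replicate 1 was the lowest. Acat2, Mvd and Fdps, other enzymes of this stretch, fell as well, with log2 fold changes of -0.71, -0.67 and -1.76. The kinases Mvk and Pmvk did not pass with all libraries (adjusted p = 0.262 and 0.227). Platelet replicate 1 lay within the untreated range for both (19.8 CPM against 18.2, 20.4 and 18.8 CPM for Mvk), and both passed without it (log2 fold changes -0.54 and -0.44, adjusted p = 0.0186 and 0.0307). Ggps1, which leads to protein prenylation and not to sterols, had 32.9, 28.7 and 29 CPM untreated and 25.6, 27.1 and 29.6 CPM with platelets (adjusted p = 0.476).

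From squalene onward, 9 of 13 tested enzymes fell (69.2%), with a median of -1.20, and this held without platelet replicate 1 (9 of 13). Fdft1, the squalene synthase that commits the pathway to sterols, had 43.4, 44 and 46.2 CPM untreated and 16, 18.7 and 15.2 CPM with platelets (log2 fold change -1.42 ± 0.10, adjusted p = 3.48e-07). Its 3 platelet values lay well below the untreated ones. Hsd17b7, a sterol ketone reductase, had 35.9, 34.5 and 31.9 CPM untreated and 8.16, 12.6 and 12 CPM with platelets (log2 fold change -1.64 ± 0.18, adjusted p = 2.76e-05). Lss, the cyclase that forms the sterol rings, Sc5d, a sterol desaturase, and Nsdhl, a sterol dehydrogenase, fell by 1.08, 1.20 and 0.61 on the log2 scale, the last of them not past the threshold without untreated replicate 2 (adjusted p = 0.0937). Sqle, Cyp51 and Msmo1, further enzymes of this stretch, fell by 1.82, 1.83 and 1.38. Dhcr7, an enzyme at the end of the pathway, had 27.3, 28 and 26.5 CPM untreated and 13.8, 22.2 and 20.2 CPM with platelets and did not pass (adjusted p = 0.067), and neither did Ebp, Lbr or Tm7sf2 (adjusted p = 0.409, 0.362 and 0.136).

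Over these 3 lists 19 genes fell, none of them with overlapping groups. The same lack of overlap held for 373 of all 376 genes that fell, so it is not particular to these lists. Platelet replicate 1 was the lowest platelet library in 14 of the 19. Its value was 0.597 to 1.29 times the mean of the other 2 platelet libraries, with a median of 0.765, so the depth of the fall was greater in the library whose labels disagree, while the direction was the same in all 3.

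**Figure D2:**
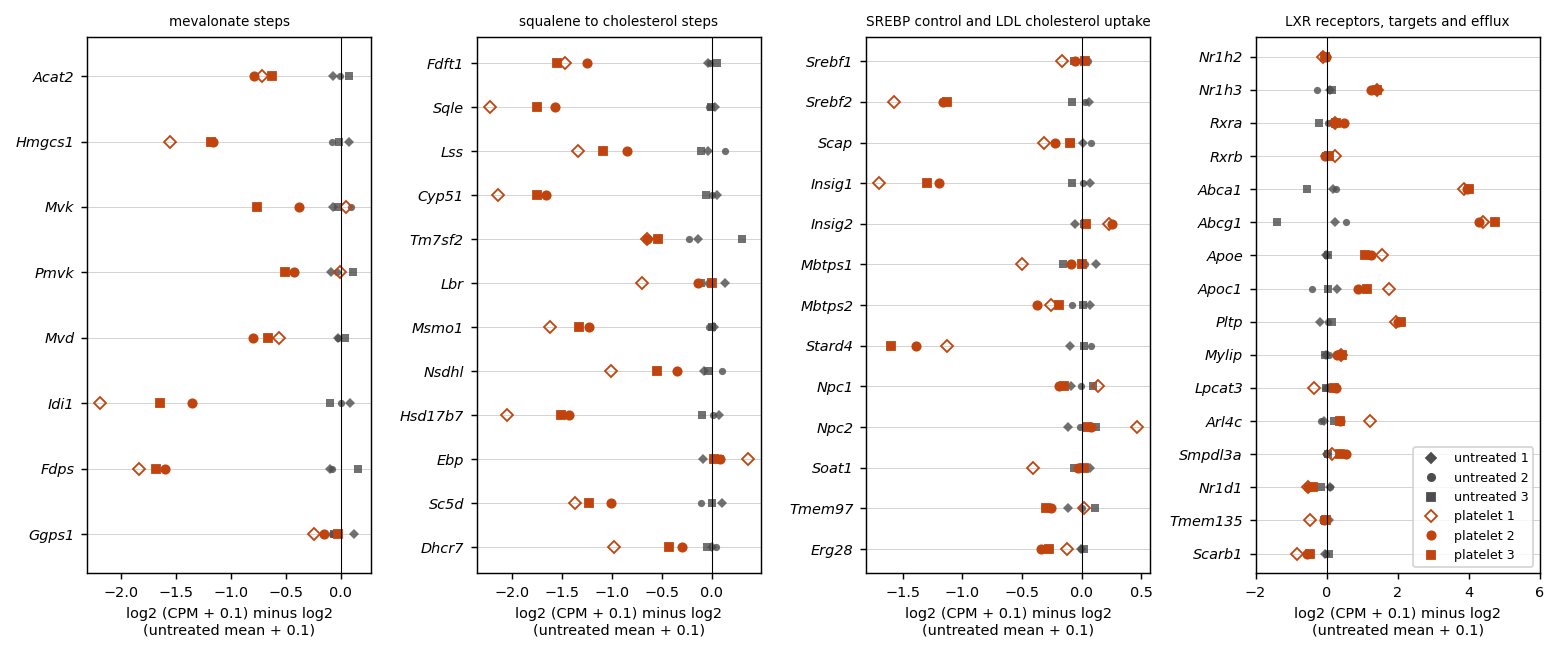
Log2 of (CPM + 0.1) minus log2 of (the untreated mean + 0.1) in each library for tested genes of the mevalonate, squalene to cholesterol, SREBP and LDL uptake, and LXR lists (grey, untreated; orange, platelet; open diamonds, platelet replicate 1). Points left of 0 are below the untreated mean: most synthesis enzymes, Srebf2 and Insig1 lie there in all platelet libraries, and Abca1, Abcg1, Pltp, Apoe and Nr1h3 lie to the right.

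Because these genes moved together, the 250 bases upstream of their start sites were read from the RefSeq promoter table (build GRCm38.p6) and searched on both strands. The table held such a window for 12 of the 19 genes that fell and for 9788 of the 13151 tested genes. A sterol element, searched as TCACNCCAC, was found for 1 of the 12 (8.33%) and for 115 of the 9788 (1.17%). Only these letters were searched, so elements spelled otherwise were not counted, and a window without a match may still hold one. A CCAAT box, the site of the NF-Y factor that works beside SREBP at sterol promoters, was found for 11 of the 12 (91.7%), for 12 of the 16 cholesterol genes with a window that did not fall (75%), and for 4012 of the 9788 (41.0%). The windows are shown for Hmgcs1, the gene with a match to the searched sterol element, and for Cyp51 and Msmo1. Those 2 were chosen after the matches were seen as examples with 1 and 3 CCAAT boxes. Capitals mark the sterol element in the first and CCAAT in the others, whose search letters may also lie on the other strand.
Hmgcs1, chr13:119690101-119690350, plus strand: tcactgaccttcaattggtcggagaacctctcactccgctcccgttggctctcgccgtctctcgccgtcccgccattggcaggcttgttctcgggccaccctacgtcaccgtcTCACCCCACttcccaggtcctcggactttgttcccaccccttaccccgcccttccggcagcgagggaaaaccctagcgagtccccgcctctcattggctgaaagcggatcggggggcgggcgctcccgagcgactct
Cyp51, chr5:4104698-4104947, minus strand: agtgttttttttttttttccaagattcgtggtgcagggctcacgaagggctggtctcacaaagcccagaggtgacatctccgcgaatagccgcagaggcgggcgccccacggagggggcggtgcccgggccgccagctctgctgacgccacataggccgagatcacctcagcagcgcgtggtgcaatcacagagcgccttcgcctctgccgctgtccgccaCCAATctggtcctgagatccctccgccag
Msmo1, chr8:64733579-64733828, minus strand: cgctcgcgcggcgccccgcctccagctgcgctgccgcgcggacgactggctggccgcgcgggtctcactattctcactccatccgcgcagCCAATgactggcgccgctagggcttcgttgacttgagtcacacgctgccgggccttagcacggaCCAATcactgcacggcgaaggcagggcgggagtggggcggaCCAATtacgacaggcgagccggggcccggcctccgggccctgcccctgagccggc
The element of Hmgcs1 ends 128 bases before the start site, and 3 CCAAT boxes lie in the same window. A match is a description of letters only, and the files hold no measurement of binding.

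On the side of export, 8 of 16 tested LXR genes rose (50%, against 3.63% of all genes) and 1 fell, with a list median of 0.37. Nr1h3, which encodes LXR-alpha, had 16.8, 13 and 17.4 CPM untreated and 42.1, 37.3 and 42.5 CPM with platelets (log2 fold change 1.37 ± 0.11, adjusted p = 1.06e-06). All 3 platelet libraries lay far above the highest untreated one and close to each other, replicate 1 included. Nr1h2, which encodes LXR-beta, had 102, 104 and 100.2 CPM untreated and 94.8, 100.4 and 99.1 CPM with platelets and did not differ beyond that spread (adjusted p = 0.758). The exporters Abca1 and Abcg1, which hand cholesterol to apolipoprotein A-I and to HDL, had 96.2, 102 and 106 and 15.1, 13.8 and 18.9 CPM in the platelet libraries against 7.33, 7.75 and 4.35 and 0.736, 0.946 and 0.17 CPM in the untreated ones. The rise of Abca1 was 15.7-fold and that of Abcg1 25.8-fold (log2 fold change 3.97 ± 0.20, adjusted p = 9.26e-09, and log2 fold change 4.69 ± 0.28, adjusted p = 5.42e-08), and untreated replicate 3 was the lowest library for both. Pltp, which transfers phospholipid to lipoproteins, had 2.7, 3.15 and 3.43 CPM untreated and 12.2, 12.7 and 13.5 CPM with platelets (log2 fold change 2.04 ± 0.15, adjusted p = 5.62e-07). Apoe, a lipoprotein ligand secreted with cholesterol, rose by 1.31. Mylip, a ubiquitin ligase induced by LXR, had 33, 34.6 and 31.9 CPM untreated and 43.8, 40.7 and 44.3 CPM with platelets, a small rise without overlap (log2 fold change 0.37 ± 0.08, adjusted p = 0.0146) that did not pass without untreated replicate 1 or 3 (highest adjusted p 0.0654). Arl4c, a small GTPase, had 24.7, 23.3 and 29.5 CPM untreated and 60.1, 33.8 and 33.4 CPM with platelets: replicate 1 was far above the other platelet libraries, and the rise did not pass without it (adjusted p = 0.0523) or without untreated replicate 1 or 2 (highest adjusted p 0.153). Scarb1, a receptor for HDL, was the member that fell (97.6, 99 and 105 CPM untreated and 56.1, 68.7 and 72.3 CPM with platelets, log2 fold change -0.61 ± 0.11, adjusted p = 0.00307). The count of rises was 7 without platelet replicate 1 and 5 without untreated replicate 1.

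The same promoter table was searched for a direct repeat of the kind LXR binds, written as GGTNA, 5 further bases and GGTCA. The window of Abca1 is shown because it was the only one of the LXR genes that rose to hold this pattern. That pattern was found for 1 of the 6 LXR genes that rose and have a window, and for 13 of the 9788 tested genes (0.133%). Capitals mark it as it stands on the printed strand, where it reads as the reverse complement of the searched letters, and it ends 52 bases before the start site.
Abca1, chr4:53159896-53160145, minus strand: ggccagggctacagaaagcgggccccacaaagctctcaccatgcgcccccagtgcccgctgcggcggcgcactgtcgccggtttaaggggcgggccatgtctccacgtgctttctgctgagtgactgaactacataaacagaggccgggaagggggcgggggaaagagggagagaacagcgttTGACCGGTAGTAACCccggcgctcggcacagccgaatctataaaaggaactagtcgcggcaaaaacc

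Fatty acid genes were less uniform. Of 20 tested genes of synthesis, elongation and desaturation 4 fell (20%) and 1 rose. Acss2, which makes acetyl-CoA from acetate, had 5.15, 4.8 and 5.06 CPM untreated and 1.97, 2.94 and 3.27 CPM with platelets (log2 fold change -0.87 ± 0.17, adjusted p = 0.00663). Aacs, which activates acetoacetate for lipid synthesis, had 73.5, 80.5 and 68.3 CPM untreated and 41.1, 44.6 and 51 CPM with platelets (log2 fold change -0.70 ± 0.10, adjusted p = 0.000336). Acly, the enzyme that draws acetyl-CoA from citrate, fell by 0.59, and Fasn by 1.02. Scd2, a desaturase, moved the other way, with 45.1, 38.5 and 38 CPM untreated and 49.8, 67.2 and 72.4 CPM with platelets (log2 fold change 0.64 ± 0.13, adjusted p = 0.0061). Among 18 genes of lipid uptake, droplets and lipolysis, 3 rose and 3 fell (16.7% each, against 3.63% and 2.86% of all genes). Fabp5, a fatty acid carrier, had 222, 229.8 and 241 CPM untreated and 557, 450.3 and 398 CPM with platelets (log2 fold change 1.02 ± 0.11, adjusted p = 2.75e-05), and its relative Fabp4 rose by 0.88. Hilpda, which protects lipid droplets from lipolysis, had 16.2, 17.9 and 19.9 CPM untreated and 39.9, 29.2 and 26.5 CPM with platelets (log2 fold change 0.82 ± 0.14, adjusted p = 0.00229). Pparg, the lipid-sensing nuclear receptor, had 41.9, 42.2 and 43.7 CPM untreated and 23.9, 29.4 and 32.8 CPM with platelets, lower in all platelet libraries (log2 fold change -0.57 ± 0.12, adjusted p = 0.00924). The lysosomal lipase Lipa had 1178, 1175 and 1167 CPM untreated and 724, 978 and 991 CPM with platelets, and its fall was 0.39 with all libraries and 0.23 without platelet replicate 1, the lowest. Acly did not pass without untreated replicate 1 or 2, nor Lipa without any one of the untreated replicates (highest adjusted p 0.0733 and 0.111), and a fit of only the 6 libraries called 2 of the fatty acid genes lower.

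Glycolysis genes rose by small amounts over many members. Of 24 tested genes of glycolysis and glucose transport 11 rose (45.8%, against 3.63%), with a median of 0.23. Ldha, which turns pyruvate into lactate, had 1198, 1191 and 1217 CPM untreated and 2133, 1981 and 1817 CPM with platelets (log2 fold change 0.72 ± 0.07, adjusted p = 1.44e-05). Slc16a3, the transporter that exports that lactate, had 74, 82.9 and 72.8 CPM untreated and 134, 139 and 149 CPM with platelets (log2 fold change 0.88 ± 0.08, adjusted p = 6.97e-06). Both lay above the untreated range in every platelet library. Pfkl, the liver-type phosphofructokinase, had 145, 153 and 133 CPM untreated and 210.1, 216 and 219 CPM with platelets (log2 fold change 0.58 ± 0.07, adjusted p = 0.000129), and Tpi1, Pgam1 and Pgk1 further down the pathway rose by 0.49, 0.43 and 0.36. The first and last steps did not pass with all libraries: Hk2 had 66.4, 67.7 and 62 CPM untreated and 90.1, 66.7 and 73.5 CPM with platelets (adjusted p = 0.237). Pkm had 3254, 3458 and 3456 CPM untreated and 3148, 3127 and 3347 CPM with platelets (adjusted p = 0.547). The glucose importer Slc2a1 had 114, 109 and 109 CPM untreated and 111, 137 and 139.7 CPM with platelets (adjusted p = 0.145, and 0.00143 without platelet replicate 1). Leaving out untreated replicate 1, untreated replicate 2 or platelet replicate 2 left 7 rises in each case, and leaving out platelet replicate 1 gave 13.

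Rises among genes of the response to low oxygen were larger. Of 21 tested 8 rose (38.1%), with a median of 0.33. Bnip3, a mitophagy receptor, had 17.8, 18.9 and 18.1 CPM untreated and 36.7, 40.4 and 34 CPM with platelets (log2 fold change 1.02 ± 0.09, adjusted p = 2.27e-06), and its paralogue Bnip3l rose by 0.44, a call lost without untreated replicate 2 (adjusted p = 0.0596). Egln3, an oxygen-sensing prolyl hydroxylase, had 4.38, 2.77 and 2.14 CPM untreated and 22.8, 17.3 and 16 CPM with platelets (log2 fold change 2.59 ± 0.21, adjusted p = 1.06e-06), a 6.03-fold rise in which all platelet libraries stood clear of the untreated ones. Ak4, a mitochondrial adenylate kinase, had 1.26, 0.806 and 0.51 CPM untreated and 2.6, 3.53 and 4.04 CPM with platelets (log2 fold change 1.99 ± 0.25, adjusted p = 0.000106). Vegfa, which drives vessel growth, rose by 1.37. Hif1a itself, whose activity is set mainly through protein stability, had 169, 139.6 and 134 CPM untreated and 126, 182 and 194 CPM with platelets (adjusted p = 0.498, and 0.0305 without platelet replicate 1). Whether oxygen differed between the cultures was not measured. Of 22 genes of the citric acid cycle none passed the edgeR test, with 5 at an unadjusted p under 0.05, 4 called by DESeq2 and 1 by limma-voom. Of 33 nuclear genes of the respiratory chain none passed either, with 2 at an unadjusted p under 0.05, 2 called by DESeq2 and 0 by limma-voom.

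**Figure D3:**
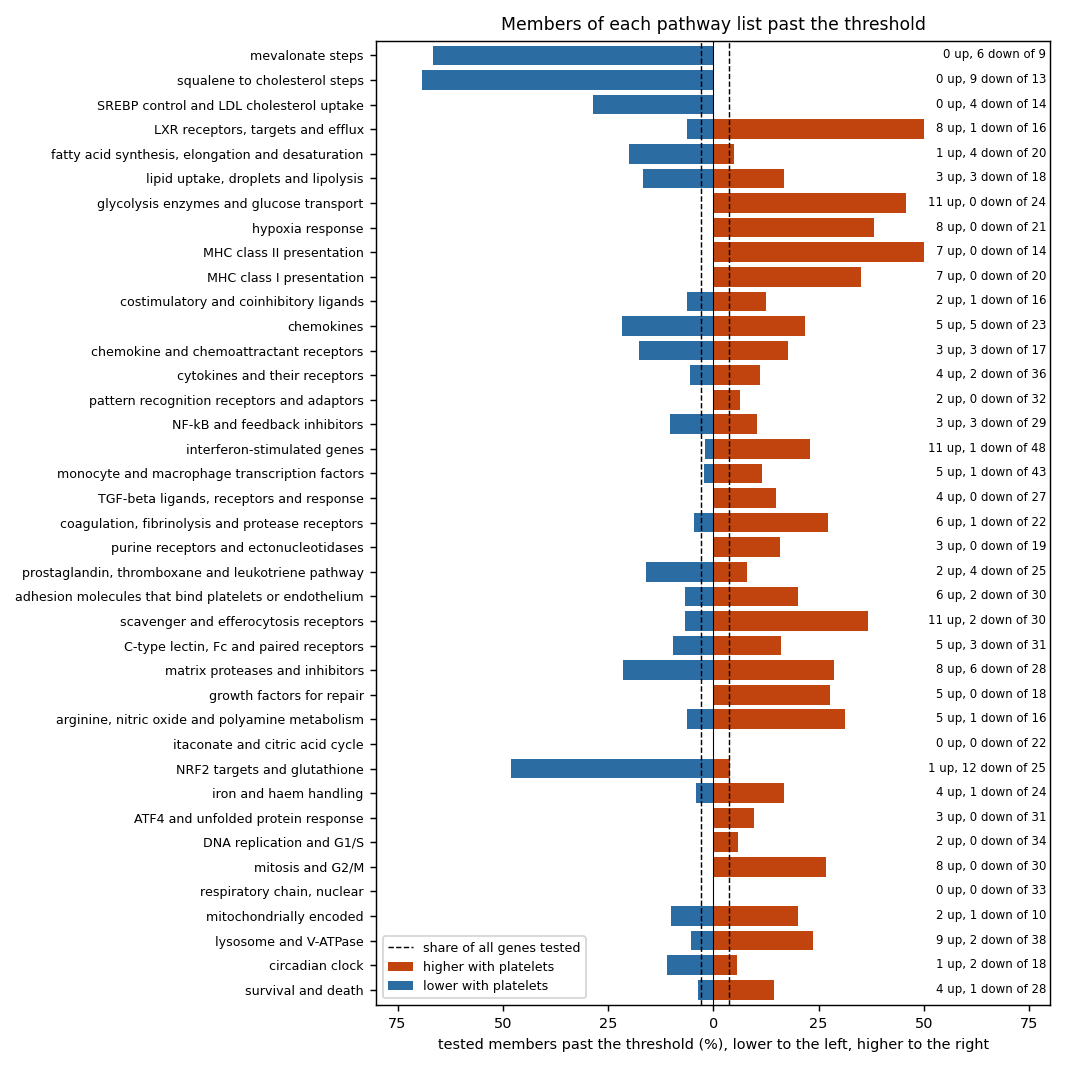
Share of the tested members of each of 39 pathway lists that were higher (orange, right) or lower (blue, left) in platelet than in untreated monocytes, with the counts at the right and dashed lines at the shares among all genes tested (3.63% higher, 2.86% lower). The cholesterol synthesis lists reach 66.7% and 69.2% lower, and the LXR and MHC class II lists 50% higher.

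Antigen presentation genes rose. Of 14 tested MHC class II genes 7 rose (50%), with a median of 0.89. H2-Eb1, a chain of the class II molecule, had 21.3, 21.9 and 25 CPM untreated and 56.3, 43.5 and 42.2 CPM with platelets (log2 fold change 1.06 ± 0.12, adjusted p = 4.64e-05). Cd74, the invariant chain that guides it, had 117, 136 and 142 CPM untreated and 285, 229.6 and 218 CPM with platelets (log2 fold change 0.89 ± 0.10, adjusted p = 5.63e-05). Ctss, the protease that removes that chain, had 1831, 1802 and 1976 CPM untreated and 3305, 2750.3 and 2566 CPM with platelets (log2 fold change 0.62 ± 0.09, adjusted p = 0.000292). Platelet replicate 1 was the highest library for all 3 of these genes, and the other platelet libraries were also above the untreated range. Ciita, the master activator of the class, had 1.26, 1.61 and 0.748 CPM untreated and 2.04, 2.37 and 2.3 CPM with platelets and did not pass (adjusted p = 0.0556). Class I genes moved less: 7 of 20 rose (35.0%), with a median of 0.25, among them H2-T23, a non-classical class I chain (log2 fold change 0.57 ± 0.10, adjusted p = 0.00232), and Tap1, a subunit of the peptide transporter (log2 fold change 0.37 ± 0.08, adjusted p = 0.012), which did not pass without untreated replicate 1 or platelet replicate 2 (highest adjusted p 0.0708). Leaving out any of untreated replicates 1 and 2 and platelet replicate 2 left 3 class I rises. Of the 16 costimulatory and coinhibitory ligands 2 rose (12.5%, against 3.63% of all genes) and 1 fell (6.25%, against 2.86%). Cd86, which engages CD28, was among the rises (5.89, 6.31 and 7.27 CPM untreated and 9.53, 9.87 and 10.1 CPM with platelets, log2 fold change 0.60 ± 0.12, adjusted p = 0.00766), though not without untreated replicate 1 (adjusted p = 0.0531). Cd80, its partner, had 5.85, 6.38 and 5.44 CPM untreated and 4.92, 6.28 and 5.92 CPM with platelets (adjusted p = 0.92).

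Dendritic cell markers were measured beside these genes, since such cells carry class II abundantly. Of 14 tested markers 5 rose (35.7%) and none fell, with a median of 0.87 and 8 higher at an unadjusted p under 0.05, and 3 rises were left without untreated replicate 1. Their summed level was 212 to 250 CPM in the untreated and 362 to 509 CPM in the platelet libraries, most of it from Cd74. Flt3, the growth factor receptor of the lineage, had 0.386, 0.491 and 0.272 CPM untreated and 1.27, 1.19 and 1.71 CPM with platelets (log2 fold change 1.85 ± 0.41, adjusted p = 0.0137), and did not pass without untreated replicate 1 or 3 (highest adjusted p 0.0607). Ccr7, which guides cells to lymph nodes and is also among the chemokine receptors below, rose by 2.73. Fscn1, an actin bundler of mature dendritic cells, had 0.035, 0.0701 and 0.136 CPM untreated and 0.211, 0.5 and 0.597 CPM with platelets (log2 fold change 2.40 ± 0.57, adjusted p = 0.0192), a rise lost in 4 of 6 fits with 1 library left out (highest adjusted p 0.0986). Bst2, which tethers virions and marks plasmacytoid cells, had 83.1, 90.05 and 99.4 CPM untreated and 208, 139 and 127 CPM with platelets (log2 fold change 0.80 ± 0.15, adjusted p = 0.00497). Zbtb46, the lineage's defining transcription factor, had 1.33, 0.631 and 0.578 CPM untreated and 0.985, 0.906 and 1.79 CPM with platelets (adjusted p = 0.56). The remaining markers named here did not pass either. Xcr1 had 0.0701, 0.0351 and 0.17 CPM untreated and 0.176, 0.344 and 0.228 CPM with platelets (adjusted p = 0.11). Itgax had 4.38, 3.72 and 4.15 CPM untreated and 4.36, 4.22 and 4.15 CPM with platelets (adjusted p = 0.93). Clec9a was too low to test, with 3 counts in the untreated and 17 in the platelet group. The part of such cells in the class II rise was not tested.

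**Figure D4:**
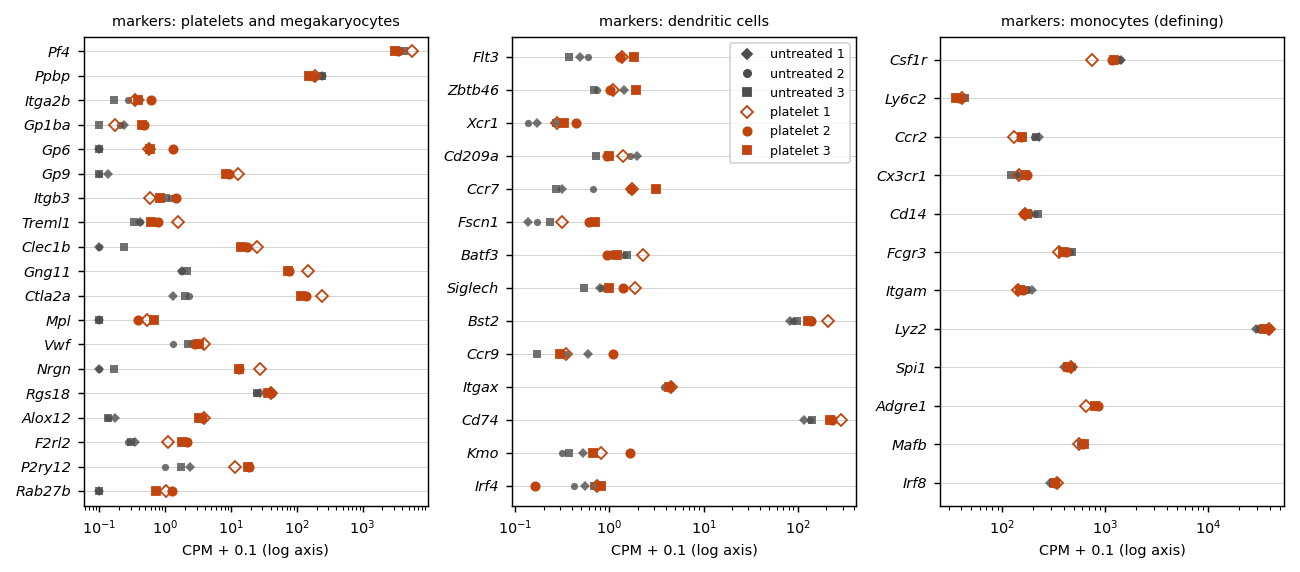
CPM + 0.1 on a log axis in each library for the tested markers of platelets and megakaryocytes, dendritic cells and monocytes (grey, untreated; orange, platelet; open diamonds, platelet replicate 1). Gng11, Ctla2a, Clec1b, Gp9 and Nrgn lie far higher in the platelet libraries, Pf4 and Ppbp are abundant in both groups, and the monocyte markers are present in all 6 libraries.

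Transcripts of platelets themselves stood among the largest rises. Of 19 tested platelet and megakaryocyte markers 12 rose (63.2%, against 3.63% of all genes) and 1 fell (5.26%, against 2.86%). Without platelet replicate 1 the counts were the same. Myl9, the smooth muscle and platelet myosin light chain, had no count in any untreated library and 22.6, 18 and 15.6 CPM in the platelet libraries, at least 180-fold higher than 3 counts over a library. Gp9, a subunit of the von Willebrand factor receptor, had 1 count in the untreated group and 950 in the platelet group, a ratio of 860 (95% counting interval 154 to 33995), and Nrgn, a calmodulin-binding protein, had 2 and 1653 (748, 207 to 6182). Clec1b, the podoplanin receptor CLEC-2, had 0, 0 and 0.136 CPM untreated and 24.8, 17.1 and 14 CPM with platelets (log2 fold change 8.52 ± 0.45, adjusted p = 1.52e-08). P2ry12, the ADP receptor targeted by clopidogrel, had 2.24, 0.876 and 1.67 CPM untreated and 11.5, 18.8 and 18 CPM with platelets (log2 fold change 3.34 ± 0.33, adjusted p = 8.58e-06). Alox12, the platelet 12-lipoxygenase, had 0.0701, 0.0351 and 0.034 CPM untreated and 3.83, 3.56 and 3.21 CPM with platelets (log2 fold change 6.12 ± 0.42, adjusted p = 2.18e-07). No platelet library overlapped the untreated ones for any of these genes, and replicate 1 was the highest for 7 of the 12 markers that rose but the lowest for P2ry12.

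The marker list was not uniformly higher. Pf4, a granule chemokine, had 3540.5, 3736 and 4247 CPM untreated and 5726, 3493 and 3146 CPM with platelets (adjusted p = 0.781). Ppbp, another, was lower in the platelet libraries (244, 238 and 245 CPM untreated and 191, 176 and 155 CPM with platelets, log2 fold change -0.48 ± 0.09, adjusted p = 0.00535). Itga2b and Itgb3, the subunits of the fibrinogen receptor, had 0.315, 0.175 and 0.068 CPM untreated and 0.246, 0.5 and 0.284 CPM with platelets and 0.701, 1.12 and 0.918 CPM untreated and 0.492, 1.37 and 0.74 CPM with platelets (adjusted p = 0.568 and 0.973). Tubb1, Gp1bb and Gp5, a tubulin of platelets and other subunits of the von Willebrand factor receptor, were too low to test, with 14, 1 and 0 counts over the platelet group and 2, 0 and 0 over the untreated group. Without Pf4 and Ppbp, the other 17 tested markers summed to 32.0 to 36.7 CPM in the untreated libraries and to 516, 329 and 289 CPM in the platelet libraries. Erythroid markers moved alongside: 3 of 5 tested rose (60%). Hba-a1, a haemoglobin chain, had 0.21, 0.28 and 0.238 CPM untreated and 17.6, 9 and 8.02 CPM with platelets, although reads of its near-identical copy Hba-a2 cannot be assigned with certainty. Of the other erythroid genes Alas2 had 3 counts over the platelet group. Basophil markers also moved, with 4 of 7 rising (57.1%). Their summed level was 1.65 to 2.56 CPM in the untreated and 7.70 to 9.87 CPM in the platelet libraries. Leaving out untreated replicate 1 or 3 or platelet replicate 3 left 2 of the basophil rises. In bulk RNA, more cells or fragments of a kind and more RNA per cell cannot be told apart, and no cell-free or platelet-only library was among those analysed.

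Markers of the labelled cell type were present in all libraries: all 12 defining monocyte genes were tested, and 10 did not pass. At an unadjusted edgeR p under 0.05, 5 of the 12 were lower and 2 higher, and DESeq2 called 2 lower and 1 higher. Over all 13151 genes tested, 1345 were lower and 1273 higher at that unadjusted p. Csf1r, the receptor for the monocyte growth factor, had 1422, 1392 and 1300.3 CPM untreated and 745, 1156 and 1223 CPM with platelets (adjusted p = 0.0895), with replicate 1 the lowest. Ly6c2, which marks classical monocytes, had 36, 36 and 42.9 CPM untreated and 40.6, 38.1 and 35.2 CPM with platelets (adjusted p = 0.962). Adgre1, the F4/80 antigen of macrophages, had 839.8, 769.5 and 772 CPM untreated and 655, 857 and 806 CPM with platelets (adjusted p = 0.848). Lyz2, the lysozyme of myeloid cells, rose by 0.28, a call lost without untreated replicate 1 or 2 or platelet replicate 2 (highest adjusted p 0.0902). Ccr2, the receptor that brings monocytes into tissue, had 227, 202 and 214 CPM untreated and 131, 153 and 155 CPM with platelets (log2 fold change -0.55 ± 0.10, adjusted p = 0.0026).

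Chemokines split evenly. Of 23 tested 5 rose and 5 fell (21.7% each), with a median of 0.04. Cxcl5, a neutrophil attractant, had 7.71, 7.29 and 6.29 CPM untreated and 1.93, 1.94 and 1.22 CPM with platelets, a 4.21-fold fall (log2 fold change -2.07 ± 0.16, adjusted p = 5.94e-07). Cxcl3, of the same family, had 75.7, 76.8 and 81.7 CPM untreated and 48.7, 33.1 and 41.4 CPM with platelets (log2 fold change -0.93 ± 0.11, adjusted p = 4.6e-05). Ccl9, a macrophage chemokine, had 1537, 1512 and 1690.5 CPM untreated and 1191, 1127 and 1112 CPM with platelets (log2 fold change -0.47 ± 0.07, adjusted p = 0.000459). All platelet libraries lay under the untreated range in these 3 genes. Ccl5, a T cell and monocyte attractant that platelet granules also hold, had 0.175, 0.0351 and 0 CPM untreated and 2.57, 1.31 and 1.96 CPM with platelets and the largest chemokine rise (log2 fold change 4.71 ± 0.47, adjusted p = 9.87e-06). Rises were also found for Cxcl16, the scavenger-type chemokine (log2 fold change 0.70 ± 0.08, adjusted p = 4.13e-05), and for Ccl24, an eosinophil attractant present at 0.736, 0.315 and 0.68 CPM in the untreated and 2.11, 1.66 and 1.82 CPM in the platelet libraries (log2 fold change 1.68 ± 0.33, adjusted p = 0.00521). Ccl2, the ligand of CCR2, had 1323, 1315 and 1506 CPM untreated and 1635, 1344 and 1279 CPM with platelets and did not pass (adjusted p = 0.876). Among 17 chemokine and chemoattractant receptors Cxcr4, the receptor that holds cells in the marrow, rose (6.06, 5.26 and 6.7 CPM untreated and 15, 11.7 and 10.6 CPM with platelets, log2 fold change 1.05 ± 0.20, adjusted p = 0.0041), and so did Ccrl2, a chemerin-binding receptor (log2 fold change 0.77 ± 0.15, adjusted p = 0.00489). Ccr7, which guides cells to lymph nodes, rose as well (0.21, 0.561 and 0.17 CPM untreated and 1.62, 1.59 and 3.02 CPM with platelets, log2 fold change 2.73 ± 0.37, adjusted p = 0.000264). C5ar1, the C5a receptor, fell (log2 fold change -0.36 ± 0.08, adjusted p = 0.0153). Leaving out any untreated replicate left 1 of the 3 receptor falls, and leaving out platelet replicate 1 gave 5 receptor rises; C5ar1 was among those lost (highest adjusted p 0.0617). The 5 chemokine rises became 3 without untreated replicate 2.

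Cytokine genes that passed moved in both directions. Of 36 tested cytokines and receptors 4 rose (11.1%, against 3.63% of all genes) and 2 fell (5.56%, against 2.86%). The count of rises ranged from 1 to 9 when single libraries were left out. It was 9 without platelet replicate 1 and 2 without untreated replicate 1. It was 1 when untreated replicate 2 or 3 or platelet replicate 2 was left out. Tnf had 30.1, 31.2 and 31.5 CPM untreated and 22.5, 28.2 and 28.3 CPM with platelets (adjusted p = 0.164). Il1b had 0.771, 1.37 and 0.884 CPM untreated and 0.844, 1.94 and 3.33 CPM with platelets (adjusted p = 0.0948), with replicate 1 the lowest platelet library, and it passed without that library (log2 fold change 1.42, adjusted p = 0.000976). Il1a rose from 1 count in the untreated group to 34 in the platelet group (ratio 30.8, 95% counting interval 5.16 to 1251; adjusted p = 0.000612). Il6 stayed at or under 0.106 CPM in all 6 libraries. Il10, which restrains macrophages, had 3.65, 4.03 and 3.77 CPM untreated and 1.58, 1.25 and 1.31 CPM with platelets, a fall shared by all platelet libraries (log2 fold change -1.47 ± 0.16, adjusted p = 2.16e-05). Its receptor chain Il10ra had 40.03, 39.2 and 36.8 CPM untreated and 45.8, 51.1 and 46.1 CPM with platelets (log2 fold change 0.30 ± 0.08, adjusted p = 0.0386). Il6ra, the IL-6 receptor, had 49.8, 47.6 and 47.3 CPM untreated and 38.3, 36.7 and 38.4 CPM with platelets (log2 fold change -0.35 ± 0.08, adjusted p = 0.0197). Neither receptor passed without any one of the untreated replicates or platelet replicate 2 (highest adjusted p 0.151 and 0.105). Of 29 genes of NF-kB signalling 3 rose and 3 fell (10.3% each, against 3.63% and 2.86% of all genes). The rises numbered 5 without platelet replicate 1. Tnip3, an inhibitor of the pathway, was lower (log2 fold change -0.78 ± 0.11, adjusted p = 0.000299). So were Dusp1, a MAP kinase phosphatase (log2 fold change -0.60 ± 0.09, adjusted p = 0.00101), and Zfp36l2, which destabilises cytokine mRNA (log2 fold change -0.65 ± 0.10, adjusted p = 0.00112). Nfkb2, a subunit of the factor, rose (log2 fold change 0.38 ± 0.08, adjusted p = 0.00735), though not without untreated replicate 2 (adjusted p = 0.0572). The other rises were of feedback inhibitors, so such inhibitors did not fall as a group. Of 48 interferon-stimulated genes 11 rose (22.9%) and 1 fell, with a median of 0.32. Irf7, the factor that amplifies the interferon response, had 4.28, 4.87 and 6.19 CPM untreated and 7.21, 10.7 and 7.8 CPM with platelets (log2 fold change 0.74 ± 0.15, adjusted p = 0.00625). Isg20, an exonuclease, had 1.02, 0.876 and 0.85 CPM untreated and 1.37, 1.97 and 2.13 CPM with platelets (log2 fold change 1.01 ± 0.18, adjusted p = 0.00318). Leaving out platelet replicate 1 or 3 raised the interferon count to 18 and 17, and leaving out untreated replicate 2 lowered it to 6.

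Receptors that clear dying cells and lipoproteins rose in 11 of 30 cases (36.7%) and fell in 2. Cd300lf, a phosphatidylserine receptor with inhibitory motifs, had 9.64, 8.94 and 9.89 CPM untreated and 38, 44.2 and 39.8 CPM with platelets (log2 fold change 2.10 ± 0.15, adjusted p = 4.33e-07). Mertk, a kinase that drives engulfment of apoptotic cells, had 29.3, 27.1 and 23.9 CPM untreated and 37.8, 69.5 and 58.4 CPM with platelets (log2 fold change 1.05 ± 0.21, adjusted p = 0.00671). For Cd300lf the platelet values were tightly grouped, while for Mertk replicate 1 was the lowest platelet library and the rise without it was 1.28. Gpnmb, a lysosomal glycoprotein of lipid-laden macrophages, had 2478, 2378 and 2402 CPM untreated and 2787, 4052 and 3919 CPM with platelets (log2 fold change 0.57 ± 0.11, adjusted p = 0.00453). C1qa, a chain of the complement factor that coats apoptotic cells, had 96.8, 109 and 112 CPM untreated and 227, 166 and 155 CPM with platelets (log2 fold change 0.78 ± 0.13, adjusted p = 0.00158). Marco, a scavenger receptor, had 2.56, 1.4 and 2.31 CPM untreated and 8.55, 7.16 and 8.25 CPM with platelets (log2 fold change 1.93 ± 0.19, adjusted p = 1.01e-05). Cd5l, an LXR-linked survival factor of macrophages, had 4.17, 4.66 and 3.84 CPM untreated and 8.3, 7.47 and 8.51 CPM with platelets (log2 fold change 0.94 ± 0.16, adjusted p = 0.0022). Cd36 and Msr1, the best known receptors for modified LDL, did not pass: Cd36 had 1752, 1594 and 1676 CPM untreated and 1110.3, 1509 and 1441 CPM with platelets (adjusted p = 0.082). Msr1 had 987, 909 and 923 CPM untreated and 784, 993 and 970.2 CPM with platelets (adjusted p = 0.861). Of the falls 1 was left when untreated replicate 1 or 2 or platelet replicate 1 or 2 was left out.

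Enzymes that cut the matrix changed in both directions, 8 of 28 tested rising (28.6%) and 6 falling (21.4%). Mmp14, a membrane-bound collagenase, had 19.5, 14.2 and 15.9 CPM untreated and 57.9, 63.8 and 78 CPM with platelets (log2 fold change 2.01 ± 0.12, adjusted p = 5.42e-08). Ctsk, a collagen-cutting cathepsin, had 9.11, 7.96 and 9.07 CPM untreated and 32.1, 31.8 and 30.9 CPM with platelets (log2 fold change 1.86 ± 0.13, adjusted p = 2.51e-07). Timp2, an inhibitor that also helps MMP14 activate other proteases, had 44.5, 41.7 and 42.6 CPM untreated and 119, 139.9 and 147 CPM with platelets (log2 fold change 1.66 ± 0.10, adjusted p = 7.81e-08). In these 3 genes the platelet libraries all lay far above the untreated ones. Mmp8, a collagenase stored by neutrophils, had 350.4, 340.2 and 334 CPM untreated and 145, 186 and 171 CPM with platelets (log2 fold change -1.03 ± 0.10, adjusted p = 1.15e-05). Mmp12, the macrophage elastase, had 19.8, 20.4 and 20.3 CPM untreated and 6.37, 9 and 9.1 CPM with platelets (log2 fold change -1.30 ± 0.15, adjusted p = 6.47e-05). Mmp13 fell by 1.62. Of 11 tested neutrophil markers 1 fell, Mmp8 itself, and 1 rose (9.09% each, against 2.86% and 3.63% of all genes). The one that rose was Mmp9, another matrix protease. It had 3.5, 3.93 and 2.85 CPM untreated and 5.98, 5.84 and 8.42 CPM with platelets (log2 fold change 0.98 ± 0.18, adjusted p = 0.00397). The tested markers other than Mmp8 summed to 62.5, 59.8 and 49.4 CPM untreated and 79.5, 74.2 and 78.1 CPM with platelets. Among those too low to test Ly6g had 0 counts in the untreated and 9 in the platelet group, Mpo 6 and 0, and Elane 7 and 4. The count of matrix rises was 5 without any one of the untreated replicates.

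Of 22 coagulation and fibrinolysis genes 6 rose (27.3%) and 1 fell. Thbs1, the adhesive protein thrombospondin-1 that platelets also store, had 91.2, 70.7 and 54.2 CPM untreated and 131, 255 and 269 CPM with platelets (log2 fold change 1.60 ± 0.22, adjusted p = 0.000325), with replicate 1 at 0.500 times the mean of the other platelet libraries. F7, coagulation factor VII, had 20.01, 21.6 and 19.2 CPM untreated and 38.1, 37 and 38.4 CPM with platelets (log2 fold change 0.90 ± 0.09, adjusted p = 1.55e-05). Tgm2, a transglutaminase that cross-links fibrin and matrix, had 56.6, 47.9 and 49.2 CPM untreated and 106, 128 and 129 CPM with platelets (log2 fold change 1.24 ± 0.09, adjusted p = 5.62e-07). F11r, the junctional adhesion molecule JAM-A, rose by 1.07, and Procr, the endothelial protein C receptor, fell by 0.70. F3, tissue factor, had 0.28, 0.736 and 0.306 CPM untreated and 0.246, 0.156 and 0.199 CPM with platelets and did not pass (adjusted p = 0.331). Of 30 adhesion molecules 6 rose (20%, against 3.63% of all genes) and 2 fell (6.67%, against 2.86%). Cd9 and Cd63, tetraspanins abundant on platelets and in macrophage endosomes, had 203, 203 and 231 CPM untreated and 404, 351 and 309 CPM with platelets and 478, 509.7 and 550.03 CPM untreated and 956, 676 and 635 CPM with platelets (log2 fold change 0.74 ± 0.10, adjusted p = 0.000295, and log2 fold change 0.56 ± 0.13, adjusted p = 0.0141). Selplg, which encodes PSGL-1, had 140.2, 147 and 149 CPM untreated and 145, 167 and 155 CPM with platelets (adjusted p = 0.545). Itgam, the integrin that binds platelet glycoprotein Ib, had 194, 172 and 169.6 CPM untreated and 143, 161 and 150.04 CPM with platelets (adjusted p = 0.128). Cd63 did not pass without untreated replicate 1 or 2 (highest adjusted p 0.0767). Of the 2 falls, those of Itga5 and Adam8, Itga5 was lost without any one of the untreated replicates or platelet replicate 2 (highest adjusted p 0.172).

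Of 25 tested genes on the list of NRF2 targets and glutathione, 12 fell (48.0%, against 2.86%) and 1 rose, with a median of -0.27. NRF2 is the factor that answers oxidative stress, and the list also holds its own gene and other antioxidant genes. Gclm, the modifier subunit of the enzyme that makes glutathione precursor, had 595, 603 and 649 CPM untreated and 389, 385 and 412 CPM with platelets (log2 fold change -0.64 ± 0.08, adjusted p = 9.62e-05). Gsta3, a glutathione transferase, had 8.76, 7.92 and 9.21 CPM untreated and 4.96, 5.12 and 4.55 CPM with platelets (log2 fold change -0.82 ± 0.15, adjusted p = 0.00297). Cat, catalase, had 407, 402 and 394 CPM untreated and 155, 271 and 274 CPM with platelets (log2 fold change -0.78 ± 0.15, adjusted p = 0.00604), with replicate 1 far under the other platelet libraries and a fall of 0.53 without it. Me1, an NADPH-making malic enzyme that also serves lipid synthesis, fell by 0.90, and Slc7a11, the cystine importer, by 0.69. Mgst1, a membrane transferase, was the gene that rose (log2 fold change 0.74 ± 0.14, adjusted p = 0.00383). Nfe2l2, which encodes NRF2, had 139, 143 and 152 CPM untreated and 118, 134 and 133 CPM with platelets (adjusted p = 0.233). The falls numbered 11 without platelet replicate 1, 6 without untreated replicate 2 and 4 in a fit of only the 6 libraries.

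Arginine and polyamine genes rose in 5 of 16 cases (31.3%, against 3.63% of all genes) and fell in 1 (6.25%, against 2.86%). That fall was lost without platelet replicate 1. Arg1, the arginase of repair-type macrophages, had 64.2, 57.3 and 65.8 CPM untreated and 243, 179.9 and 190.1 CPM with platelets (log2 fold change 1.71 ± 0.14, adjusted p = 1.3e-06). Ass1, which remakes arginine from citrulline, had 2.24, 1.54 and 1.8 CPM untreated and 3.83, 4.59 and 4.61 CPM with platelets (log2 fold change 1.22 ± 0.18, adjusted p = 0.000452). Arg2, the mitochondrial arginase, had 0.175, 0.456 and 0.544 CPM untreated and 1.97, 1.25 and 1.56 CPM with platelets (log2 fold change 2.0 ± 0.31, adjusted p = 0.000924). Odc1, the first enzyme of polyamine synthesis, had 119, 119.6 and 124 CPM untreated and 151, 159.6 and 145 CPM with platelets (log2 fold change 0.33 ± 0.08, adjusted p = 0.0201), and did not pass without untreated replicate 1 or 2 or platelet replicate 2 (highest adjusted p 0.0991). Nos2, the inducible nitric oxide synthase that competes for arginine, had no count in 5 of the 6 libraries. Of the rises 3 were left when untreated replicate 1 or 2 or platelet replicate 2 was left out.

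Among transcription factors 5 of 43 rose (11.6%, against 3.63% of all genes) and 1 fell (2.33%, against 2.86%). Id2, an inhibitor of helix-loop-helix factors needed for dendritic and innate lymphoid cells, had 116, 112 and 124 CPM untreated and 334, 253 and 260.1 CPM with platelets (log2 fold change 1.27 ± 0.11, adjusted p = 3.89e-06). Bhlhe40, a repressor linked to macrophage cycling and hypoxia, had 14.6, 13.9 and 9.65 CPM untreated and 28, 35 and 35 CPM with platelets (log2 fold change 1.36 ± 0.15, adjusted p = 4.21e-05). Batf, an AP-1 partner, had 6.55, 5.82 and 5.64 CPM untreated and 11.9, 9.97 and 9.59 CPM with platelets (log2 fold change 0.80 ± 0.11, adjusted p = 0.00034). Klf2, a factor of quiescence, rose by 0.58. In the TGF-beta list Tsc22d1, a TGF-beta-inducible gene, had 6.66, 5.12 and 5.91 CPM untreated and 25.4, 18.4 and 18.2 CPM with platelets (log2 fold change 1.80 ± 0.16, adjusted p = 4.07e-06), while Tgfb1 had 134, 144 and 139 CPM untreated and 118, 111 and 116 CPM with platelets (adjusted p = 0.0549, and 0.0456 without platelet replicate 1). Jag1, a ligand of Notch receptors, had 129.9, 122 and 105 CPM untreated and 37, 48.8 and 55.1 CPM with platelets (log2 fold change -1.34 ± 0.13, adjusted p = 8.47e-06), clearly lower in every platelet library. Of 30 genes of mitosis 8 rose (26.7%), with a median of 0.31, all by little: Ccna2, cyclin A2, had 52, 46.8 and 51.6 CPM untreated and 65.5, 64.6 and 66.8 CPM with platelets (log2 fold change 0.39 ± 0.09, adjusted p = 0.0179; 0.115 without untreated replicate 2). Leaving out untreated replicate 1 or 2 left 2 and 0 of these mitosis genes, and leaving out platelet replicate 2 or 1 gave 4 and 9. Nptx1, a secreted pentraxin, had 12.4, 8.41 and 9.48 CPM untreated and 1.37, 3.28 and 3.41 CPM with platelets (log2 fold change -1.90 ± 0.33, adjusted p = 0.0022). Mfap3l, a membrane protein, had 20.6, 16.7 and 15.4 CPM untreated and 6.37, 7.44 and 7.4 CPM with platelets (log2 fold change -1.31 ± 0.14, adjusted p = 1.97e-05), both without overlap.

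The same platelet exposure was followed by LPS in the other libraries, and the comparison of platelet plus LPS with LPS uses none of the 6 libraries above, although the fit shares its estimate of the spread. There, 957 genes passed (7.28%). Of the 478 genes that rose without LPS 421 (88.1%) had the same sign with it and 216 (45.2%) also rose; of the 376 that fell, 314 (83.5%) had the same sign and 120 (31.9%) also fell. The 336 genes shared in this way numbered 464 without platelet replicate 1 and 215 without untreated replicate 2, of the genes then called. The shares with the same sign, or called in the same direction, were not computed over all genes tested. The 7.28% counts both directions, so it is not a like background, and whether the sharing exceeds that of other genes was not tested. In opposite directions 6 and 9 genes were called. The effect of platelets differed between the 2 settings by a test of the interaction for 208 genes (1.58%), 72 of them among the 478 and 32 among the 376. The 478 and 376 were chosen by the effect without LPS, which the interaction subtracts. That choice alone favours a smaller effect with LPS, so these counts cannot be compared with the share of all genes.

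Cholesterol genes fell in both settings. With LPS, 5 of 9 mevalonate, 9 of 13 later and 6 of 14 SREBP and uptake genes were lower, and 7 of 16 LXR genes were higher. Of all genes tested 7.28% passed in that comparison in either direction, and the share in each direction was not computed. Srebf2 stood at 194 ± 9.9 CPM with LPS and 83.5 ± 5 CPM with platelets and LPS (mean ± SD, n = 3 each; log2 fold change -1.22, edgeR adjusted p = 3.3e-06), against -1.27 without LPS (adjusted p of the interaction 0.958). Msmo1 fell further with LPS, to 32.5 ± 2.76 from 142 ± 3.43 CPM (log2 fold change -2.13 against -1.38, interaction adjusted p = 0.0132). Abca1 stood at 33.7 ± 7.19 CPM with LPS and 279 ± 34.3 CPM with both (log2 fold change 3.05, interaction adjusted p = 0.105). Cd300lf rose more steeply with LPS, from 4.22 ± 1.24 to 36.4 ± 3.14 CPM (log2 fold change 3.11 against 2.10, interaction adjusted p = 0.0342).

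Other responses differed between the settings. Tsc22d1, 3.49-fold higher after platelets alone, was 19.8 ± 2.46 CPM with LPS and 18.4 ± 2.25 CPM with both (log2 fold change -0.10, interaction adjusted p = 0.00029). Thbs1 was 217 ± 24.9 and 178 ± 12.1 CPM in those groups (log2 fold change -0.28, interaction adjusted p = 0.00487). For both genes the LPS groups lay near the level of the platelet group. Bcl2a1b, a survival gene with near-identical copies among which reads cannot be assigned with certainty, was 123 ± 15.8 and 119.8 ± 3.97 CPM with LPS against 5.22, 4.52 and 5.17 CPM untreated and 17.4, 11.1 and 10.5 CPM with platelets (interaction adjusted p = 0.00388). Zfp36l2, which fell without LPS, was higher with platelets and LPS (26.3 ± 1.57 CPM) than with LPS (18.2 ± 1.4 CPM; log2 fold change 0.53, adjusted p = 0.00791). Cd72, an inhibitory lectin, turned likewise: it had 6.38, 6.27 and 6.19 CPM untreated and 2.99, 2.66 and 3.81 CPM with platelets, and then 21.9 ± 1.34 CPM with LPS and 30.4 ± 1.48 CPM with both (log2 fold change 0.47). Tmem176b, an ion channel of dendritic cells and macrophages, rose without LPS (4.03, 3.54 and 3.81 CPM untreated and 6.61, 5.78 and 6.71 CPM with platelets) and was lower with both (114 ± 5.22 CPM) than with LPS (159.5 ± 10.5 CPM).

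**Figure D5:**
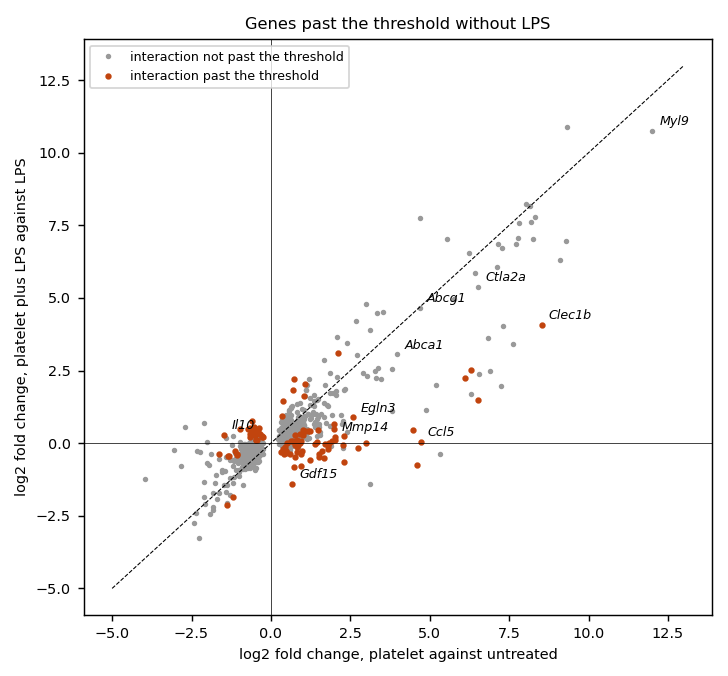
Log2 fold change of platelet against untreated (x axis) and of platelet plus LPS against LPS (y axis) for the 854 genes past the threshold without LPS; orange points also passed the test of the interaction, and the dashed line marks equal changes. Most points lie at the lower left and upper right, as 421 of 478 rises and 314 of 376 falls kept their sign, while Ccl5, Mmp14 and Gdf15 lie far below the dashed line. The share of all genes tested with the same sign in both comparisons was not computed.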

How the data were processed

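The deposited files hold raw counts per gene, 1 table per library, whole numbers as the authors deposited them. Tools listed in the submitters' processing notes are Salmon 1.5.2, STAR 2.7.9a, fastp 0.23.1 and featureCounts of Subread 2.0.1, with no role for any of them. Genome build, annotation and use of strand: not given in the sources used here. The cDNA was, per the labels' protocols, amplified from very little RNA with SMARTer Ultra Low Input v4 and made into libraries with Nextera XT, so amplification adds to the spread, and reads of overlapping or antisense genes, or of near-identical copies such as Hba-a1 and Hba-a2, cannot be told apart with certainty.

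The 12 count tables (53819 genes, 26048 with a count) were filtered with edgeR's filterByExpr, which left 13151 genes, scaled by TMM, and fitted with edgeR 4.0.16 (glmQLFit and glmQLFTest, R 4.3.3) on all 4 groups without covariates (8 residual degrees of freedom, common dispersion 0.0171). Benjamini-Hochberg adjusted p-values run over all tested genes, and errors after ± beside a log2 fold change are standard errors. Library totals are 24520148 to 30491202 counts, and intervals of count ratios (95%) cover counting error only. The scripts were tested on simulated data. Alternatives were DESeq2 1.42.0, limma-voom (limma 3.58.1), other size factors, other filters, a replicate block, a fit of the 6 libraries alone, and each library left out; the closing section gives their effect. Same-numbered libraries did not deviate together (correlations -0.228, 0.00419 and -0.164), so the numbers were not taken to pair them.

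Members and gene lists were chosen with earlier results of these data known. Named are the 15 largest rises and falls (at least 10 CPM, no overlap, no predicted genes), up to 6 members of each list with the smallest p, members needed to show a step not past the threshold, a fixed set of monocyte genes, up to 5 genes without untreated counts, and the leading genes shared or opposed with LPS. Ppbp, Arl4c, Bnip3l, Gpnmb, Itga5, Lss, Mylip, Nsdhl, Pgk1 and Slc7a11 fall outside that rule and were chosen after their values were seen. Promoter windows come from RefSeq (GRCm38.p6) and were matched by symbol. Some genes are not reported here by name and are left out of the plots; counts over lists include them.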

Additional observations from a re-analysis of the deposited data

Results flagged for a closer look

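For 51 named genes the effect of platelets with LPS differed from that without it by edgeR's test of the interaction, and each difference below is the log2 effect with LPS minus that without. Genes called without LPS were chosen by the same effect that the difference subtracts. That choice alone favours negative differences among rises and positive ones among falls. For 35 of the genes that rose without LPS the difference was negative. Their fitted rise was smaller or gone with LPS, or the sign turned, and 5 of them, given further on, passed as lower with LPS. Among platelet, matrix and hypoxia genes and those of scavenging and iron handling it was -4.44 for Clec1b, -3.86 for Alox12, -1.79 for Mmp14, -1.23 for Mmp9, -1.70 for Egln3, -1.31 for Ak4, -0.57 for Bnip3, -1.86 for Marco, -1.32 for Cd5l and -0.89 for Hp. Among chemokines, cytokines, antigen presentation and other immune genes it was -4.66 for Ccl5, -2.20 for Ccl24, -0.62 for Cxcl16, -2.89 for Ccr7, -0.85 for Ccrl2, -4.04 for Il1a, -2.06 for Ifit1, -0.59 for Nfkb2, -0.56 for Fcgr2b, -0.63 for H2-Aa, -0.74 for H2-Ab1 and -1.87 for Hdc. For other genes that rose it was -1.91 for Tsc22d1, -1.88 for Thbs1, -0.81 for Tgm2, -1.91 for Arg2, -0.83 for Batf, -0.99 for Phgdh, -2.31 for Bcl2a1a and -1.42 for Bcl2a1b. Clec1b, Ccl5 and Il1a had 4, 6 and 1 counts over the untreated libraries, and Alox12 had 2, 1 and 1 in untreated replicates 1, 2 and 3. Counts this low make the effects of these genes without LPS imprecise. The rise was larger with LPS for Cd300lf (a difference of 1.01) and Arl4c (1.51).

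Among the genes that fell without LPS the difference was 1.25 for Mmp13, 0.89 for Jag1 and 0.85 for Mfap3l, whose falls were smaller with LPS, 1.77 for Il10, which did not pass with LPS, and -0.75 for Msmo1 and -0.67 for Sc5d, whose falls were larger. Of the genes called in opposite directions in the 2 settings, it was 1.18 for Zfp36l2, 1.46 for Cd72, 0.87 for Jmjd1c, 0.89 for Noct and 0.68 for Il6ra, all lower after platelets alone and higher with LPS. It was -1.24 for Tmem176b, -0.81 for Sla, -2.07 for Gdf15, -1.55 for Spic and -0.60 for Il10ra, which went the other way. Of those 10 genes, 6 lost the call without LPS when single libraries were left out: Sla in 3 of 6 such fits (without untreated replicate 2 or 3 or platelet replicate 2, highest adjusted p 0.0733), Spic in 3, and Gdf15, Noct, Il6ra and Il10ra in 4 each. Genes that did not pass without LPS were Ccl2, Cx3cr1 and Tgfb1, with differences of 1.40, 1.44 and 0.52. Jmjd1c, a histone demethylase family member, had 85.7, 90.8 and 73.3 CPM untreated and 61.7, 59.9 and 57.5 CPM with platelets, and 12.1 ± 0.649 CPM with LPS and 15.9 ± 0.505 CPM with both (mean ± SD, n = 3). Sla, an adaptor that dampens receptor signalling, had 35.2, 32.6 and 32.7 CPM untreated and 43.9, 51.8 and 42.7 CPM with platelets, and 131 ± 2.92 and 103 ± 12.1 CPM with LPS and with both.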

How the results depend on the processing

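The 854 genes past the threshold (478 higher, 376 lower) became 1291 with DESeq2 (773 higher), 415 in a fit of only the 6 libraries (261 higher, 154 lower) and 229 when a change of 1 or more on the log2 scale was also asked (164 higher, 65 lower); without a filter on low counts 577 genes were lower. Leaving out single libraries gave 410 to 1027 genes (261 to 590 higher, 149 to 502 lower), the fewest without untreated replicate 2, and 215 to 464 genes shared with the LPS comparison against 336. With the replicate number as a block 621 genes passed (364 higher, 257 lower), although the libraries share only a number, and no library correlated best with its own number. In the 3960 checks of single named genes 3539 stayed on their side of the threshold, 392 fell below it, 29 passed it, and no called gene changed sign; the most, 77, fell below it in the fit of 6 libraries, which has 4 residual degrees of freedom. List counts moved by more than 1.5 times in 274 of 1500 checks. Levels under 3 counts (0.0854 to 0.105 CPM) were not detectable at this depth.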

Other observations

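Several smaller groups moved as well. Of 38 tested lysosomal genes 9 rose (23.7%) and 2 fell, among them Ctsh, a cathepsin with aminopeptidase activity (276, 283 and 289 CPM untreated and 409.6, 409.5 and 387 CPM with platelets, log2 fold change 0.51 ± 0.07, adjusted p = 0.000516), and Ctsz, a carboxypeptidase (965, 1009 and 1038 CPM untreated and 1445, 1309.5 and 1211 CPM with platelets, log2 fold change 0.40 ± 0.07, adjusted p = 0.00363); the rises numbered 15 without platelet replicate 1, 3 without untreated replicate 1 or 2, and 4 without untreated replicate 3 or platelet replicate 2. Of 24 iron and haem genes 4 rose (16.7%, against 3.63% of all genes) and 1 fell (4.17%, against 2.86%). The rises numbered 2 without untreated replicate 2 or 3. Hp, the haemoglobin-binding haptoglobin, had 3.72, 3.33 and 3.57 CPM untreated and 6.02, 7.22 and 7.31 CPM with platelets (log2 fold change 0.95 ± 0.13, adjusted p = 0.000295). Hmox1, which breaks down haem, had 2674, 2825 and 2763 CPM untreated and 2191, 2500.5 and 2284 CPM with platelets (log2 fold change -0.24 ± 0.06, adjusted p = 0.0331). That fall did not pass without any one of the untreated replicates or platelet replicate 3. Hp passed in every fit with 1 library left out. Of 18 growth factors 5 rose (27.8%, against 3.63% of all genes). The count was 2 without untreated replicate 1, untreated replicate 2 or platelet replicate 2. Pdgfb, a mitogen of mesenchymal cells, had 5.78, 6.34 and 6.9 CPM untreated and 9.15, 8.94 and 9.27 CPM with platelets (log2 fold change 0.52 ± 0.14, adjusted p = 0.0356), a rise lost in 4 of 6 fits with 1 library left out (highest adjusted p 0.16). Angpt1, a ligand of the endothelial receptor TIE2 that platelets also carry, had no count in the untreated libraries and 65 in the platelet libraries, at least 6.59-fold more than 3 counts over a library. Other genes without a count in the untreated group were Ly6g6c and Mmrn1, a platelet granule protein, at 1.34, 1.31 and 1.68 and 1.02, 1.72 and 1.45 CPM in the platelet libraries (at least 13.9-fold and 13.4-fold higher).

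Fc and paired receptors changed in both directions, 5 of 31 rising (16.1%, against 3.63% of all genes) and 3 falling (9.68%, against 2.86%). Leaving out untreated replicate 1 left 3 of the rises and leaving out untreated replicate 2 or 3 left 1. Fcgr2b, the inhibitory IgG receptor, had 30.5, 29.97 and 31.3 CPM untreated and 44.2, 49.4 and 49.96 CPM with platelets (log2 fold change 0.65 ± 0.08, adjusted p = 8.36e-05), and Sirpb1c, an activating paired receptor, had 40.9, 42.9 and 42.5 CPM untreated and 23.9, 24.9 and 24.5 CPM with platelets (log2 fold change -0.78 ± 0.09, adjusted p = 5.14e-05). Both groups were free of overlap for each. Cd226, an adhesion receptor shared by platelets and lymphocytes, had 3 counts in the untreated and 817 in the platelet group (ratio 246, 95% counting interval 84.0 to 1198), and Clu, clusterin, a protein of platelet granules, had 1 and 835 (756, 135 to 29884); both were chosen after their values were seen. H2bc4, a histone gene with near-identical copies, had 3.4, 4.1 and 3.91 CPM untreated and 23.5, 17.9 and 15.4 CPM with platelets (log2 fold change 2.31 ± 0.18, adjusted p = 5.62e-07).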
